A study of Mus musculus with 18 samples.

Results

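The 10 genes described here act in Wnt signalling: the nuclear factors Lef1 and Tcf7, the intracellular and secreted feedback regulators Axin2, Nkd1, Notum and Dkk1, the extracellular modulators Sfrp1, Sfrp2 and Rspo3, and the formin Daam2. They were chosen by name from the 53465 gene identifiers of the table, and all 10 were measured and passed the filter on low counts in every comparison. Daam2 was included because it was among the few genes called in anterior pieces of the mutants, so its level there is a description and not a test.

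RNA was sequenced from 9 mouse embryos at embryonic day 9, of which 5 were controls and 4 were Meis1/Meis2 double knockouts (DKO). Each embryo gave an anterior library, from the axis that carries the older somites, and a posterior library, from the axial bud and the 10 to 12 youngest somites. Each region thus had 5 control libraries and 4 DKO libraries, and the embryos had 20 to 24 somites. Both Meis1 and Meis2 were conditional alleles recombined by Delta1Cre, a Cre named after Delta1 (Dll1), a Notch ligand of the presomitic mesoderm, and the labels give no allele or Cre for the controls. The pieces were not sorted, so tissues in which Cre was not active are counted in the same library. In such bulk samples, fewer cells of a type and less RNA per cell cannot be told apart.

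Library totals were 12.7 to 38.2 megacounts (M) of expected counts, and 3 counts corresponded to 0.079 to 0.233 CPM (counts per megacount of the library). Meis1 and Meis2 were still counted in every DKO library, at 89.7 to 111 and 130.4 to 157 CPM in anterior pieces and at 46.7 to 71.9 and 91.1 to 116 CPM in posterior pieces. Their log2 fold changes (DKO against control) were -0.30 (SE 0.0692, adjusted p = 0.123) and -0.41 (SE 0.0608, adjusted p = 0.0522) in anterior pieces and -0.55 (SE 0.158, adjusted p = 0.336) and -0.52 (SE 0.0983, adjusted p = 0.196) in posterior pieces. With DESeq2 both genes passed the threshold in both regions, with adjusted p of 0.00747 (Meis1) and 1.31e-07 (Meis2) in anterior and 0.0468 and 0.000469 in posterior pieces. Only the posterior Meis1 levels overlapped between genotypes, and gene-level counts do not show whether the recombined exons were read. In 1 embryo, control 1, both libraries went against the sex label: it was labelled female, but Xist was at 0.34 and 0.211 CPM and genes of the Y chromosome summed to 151 and 162 CPM. Calls that changed without that embryo are named beside the results.

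In the β-catenin branch of the pathway, a Wnt ligand binds Frizzled and LRP receptors, β-catenin is spared from destruction, and TCF/LEF factors turn on target genes, several of which code for inhibitors of the pathway itself. In the vertebrate tail bud this signal maintains the progenitors of the axis and takes part in segmentation, and it later patterns the somite and the dorsal neural tube. A second branch works through Dishevelled and DAAM formins to organise actin and cell polarity. MEIS proteins are homeodomain factors that bind DNA with PBX and HOX partners.

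RefSeq promoter windows (build GRCm38.p6, 250 bases before to 50 after a start site) matched 7 of the 10 genes: Axin2, Lef1, Tcf7, Nkd1, Dkk1, Sfrp2 and Daam2. The windows were searched on both strands for the TCF/LEF motifs ATCAAAG and AACAAAG and for the MEIS motif TGACAG, which do not overlap with each other in the windows shown. Over all 32851 windows of this length, the motifs were held by 3.73%, 5.85% and 19.2%. The 250 bases before the start site are shown for 3 genes, with a motif match in capitals: Dkk1, which had the largest posterior to anterior ratio and 1 copy of AACAAAG on the other strand (CTTTGTT, its first base 98 bases upstream of the start site), Nkd1, with 1 copy of TGACAG on the other strand (CTGTCA, 61 bases upstream), and Daam2, in which none of the 3 motifs was found.
Dkk1, chr19:30549497-30549746, minus strand: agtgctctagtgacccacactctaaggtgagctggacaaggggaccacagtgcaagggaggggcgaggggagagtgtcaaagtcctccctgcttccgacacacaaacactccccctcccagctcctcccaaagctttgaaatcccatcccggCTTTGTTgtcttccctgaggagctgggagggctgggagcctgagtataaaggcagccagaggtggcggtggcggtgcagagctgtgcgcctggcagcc
Nkd1, chr8:88527383-88527632, plus strand: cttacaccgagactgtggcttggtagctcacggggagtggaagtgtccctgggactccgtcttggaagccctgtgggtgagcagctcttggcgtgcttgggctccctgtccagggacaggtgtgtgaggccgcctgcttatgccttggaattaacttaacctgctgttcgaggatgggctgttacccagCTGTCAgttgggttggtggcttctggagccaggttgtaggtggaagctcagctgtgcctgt
Daam2, chr17:49564338-49564587, minus strand: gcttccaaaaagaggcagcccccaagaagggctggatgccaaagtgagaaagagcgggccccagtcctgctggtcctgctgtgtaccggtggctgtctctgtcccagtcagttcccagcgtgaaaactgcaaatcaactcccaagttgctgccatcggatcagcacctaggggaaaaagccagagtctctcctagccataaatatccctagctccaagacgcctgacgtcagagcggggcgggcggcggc
The RefSeq start site of the Nkd1 window lies 6279 bases inside the GENCODE gene. The windows of Axin2, Tcf7 and Sfrp2 and the Lef1 window nearest the annotated gene start held none of the 3 motifs, and 1 of the 4 Lef1 windows in the table held TGACAG. These matches describe letters in short windows and say nothing of binding.

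**Figure D1:**
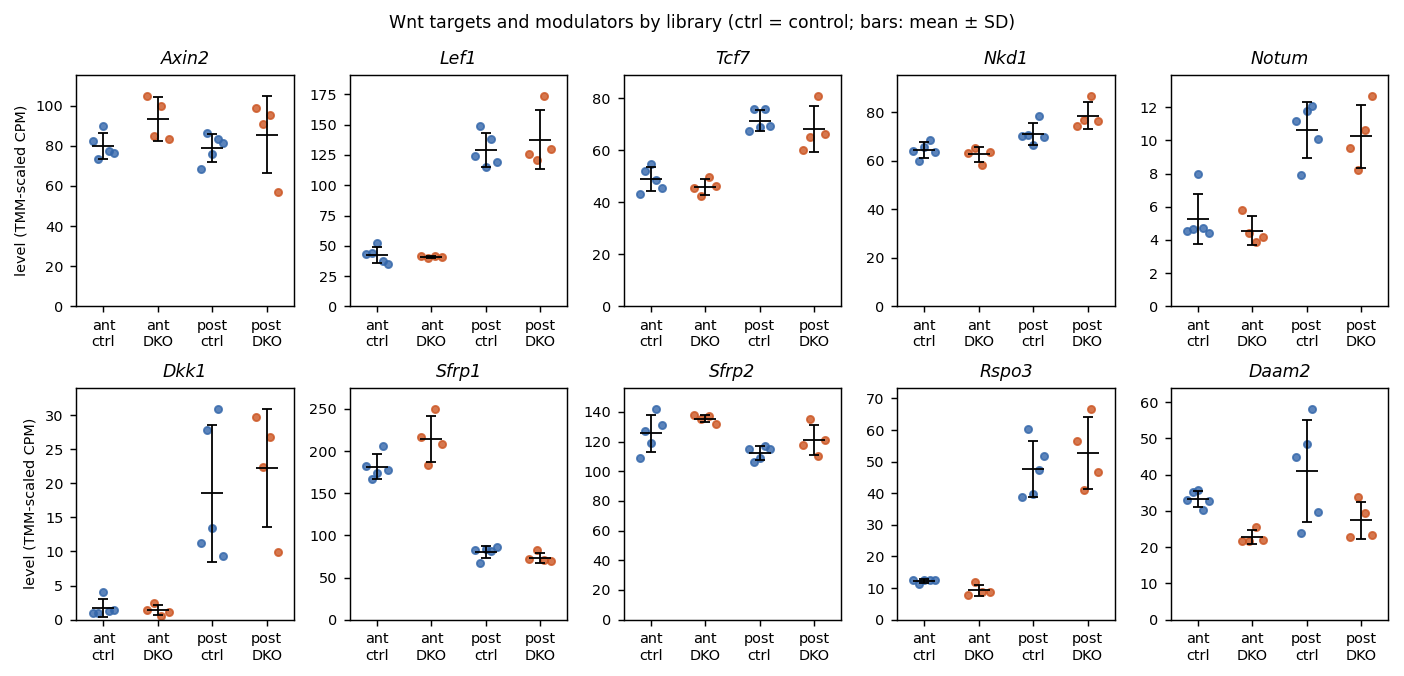
Level of each gene in each of the 18 libraries (TMM-scaled CPM on the vertical axis, each panel with its own scale starting at 0), by group along the horizontal axis. Points are libraries, and the bar and whisker are the group mean and SD. Lef1, Tcf7, Notum, Dkk1 and Rspo3 sit higher and Sfrp1 lower in the posterior groups, while Daam2 is lower in the 4 anterior DKO libraries (21.6 to 25.6 CPM) than in the 5 anterior controls (30.3 to 35.7 CPM).

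Region separated these genes far more than genotype did. Between posterior and anterior control pieces, 5 of the 10 genes (Lef1, Tcf7, Notum, Dkk1 and Rspo3) were higher and 1 (Sfrp1) was lower at an adjusted p below 0.05, where 25.4% of the 15294 genes tested were called (12.1% higher and 13.3% lower). In DKO embryos the same 6 genes were called in the same directions and Nkd1 was also higher, so that 7 of the 10 were called against 18.5% of 15777 genes (8.76% higher and 9.70% lower). The median log2 fold change of the 10 genes was 0.43 in controls and 0.45 in DKO embryos, against -0.01 and 0.01 over all genes tested. These calls on the 6 shared genes were retained under each of the 11 alternatives in controls and each of the 10 in DKO embryos. Posterior pieces differ from anterior pieces in tissue makeup: 9 axial bud and presomitic markers summed to 295 to 508 CPM in posterior and 72.0 to 108 CPM in anterior libraries, with Msgn1 at 3 counts or fewer in every anterior library, and the part of tissue makeup in these differences was not tested.

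The transcription factor Lef1 was among the most strongly regional of the 10 genes. It was read at 42.9, 44.0, 52.0, 37.7 and 35.4 CPM in anterior controls 1 to 5 and at 124, 149, 115, 138 and 119 CPM in the posterior pieces of the same embryos. Every posterior value was above every anterior value, and the posterior to anterior ratio was 3.04 (log2 fold change 1.61, SE 0.103, adjusted p = 3.63e-07). Anterior DKO libraries were close together, at 41.9, 39.9, 41.5 and 40.7 CPM, and posterior DKO libraries were at 126, 121, 174 and 129.6 CPM. Their ratio was 3.36 (log2 fold change 1.75, SE 0.11, adjusted p = 5.25e-06). In each genotype the highest posterior Lef1 value came from the embryo with 20 somites, control 2 and DKO 3. Genotype comparisons were small beside their errors, with log2 fold changes of -0.05 (SE 0.0934, adjusted p = 0.872) in anterior and 0.10 (SE 0.114, adjusted p = 0.741) in posterior pieces.

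Tcf7, which codes for the TCF1 factor, had a smaller regional difference. Anterior controls had 43.4 to 54.8 CPM with a median of 48.5 and posterior controls 67.4 to 75.9 with a median of 69.3, with no overlap. The ratio was 1.47 (log2 fold change 0.55, SE 0.0664, adjusted p = 5.33e-05). DKO embryos gave 42.4 to 49.9 CPM anterior and 60.1 to 81.1 CPM posterior, a ratio of 1.48 (log2 fold change 0.57, SE 0.0924, adjusted p = 0.00168). In posterior DKO pieces, embryo 3 was again the highest. The family members differed: in controls Tcf7l1 rose by 0.21 on the log2 scale (SE 0.048, adjusted p = 0.00535) and Tcf7l2 fell by 0.47 (SE 0.062, adjusted p = 0.000106) from anterior to posterior. Log2 fold changes of Tcf7 between genotypes were -0.08 (SE 0.0714, adjusted p = 0.662) in anterior and -0.07 (SE 0.0839, adjusted p = 0.745) in posterior pieces.

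Axin2, the feedback scaffold of the β-catenin destruction complex and a widely used readout of the pathway, did not follow Lef1 and Tcf7. It was read at 82.5, 73.6, 90.1, 77.5 and 76.6 CPM in anterior controls and at 68.4, 86.3, 75.8, 83.2 and 81.4 CPM in posterior controls. The regions overlapped, and 3 of 5 embryos had the higher value in the posterior piece (log2 fold change -0.02, SE 0.0715, adjusted p = 0.895). Anterior DKO libraries had 105, 85.0, 99.9 and 83.3 CPM, and posterior ones 98.8, 90.9, 95.3 and 57.2 CPM. DKO 4 gave the lowest posterior value of all 9 embryos, and the other 3 gave the highest ones. The anterior log2 fold change between genotypes was 0.22 (SE 0.0796, unadjusted p = 0.0178, adjusted p = 0.279), and the posterior one was 0.11 (SE 0.136, adjusted p = 0.739), or 0.26 without DKO 4 (adjusted p = 0.418).

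Nkd1, an inhibitor that binds Dishevelled and is itself induced by Wnt, varied little. Anterior controls had 63.9, 59.9, 65.8, 68.7 and 63.6 CPM and posterior controls 70.1, 70.6, 66.5, 78.5 and 70.0 CPM. The posterior piece was the higher one in 5 of 5 control embryos, but the groups overlapped (log2 fold change 0.15, SE 0.0533, adjusted p = 0.0654, and 0.0267 with the embryo as a block). Nkd1 also passed the threshold in controls with DESeq2. In DKO embryos, anterior pieces had 63.3, 65.5, 58.1 and 63.7 CPM and posterior pieces 74.5, 76.8, 86.9 and 76.5 CPM, which did not overlap (log2 fold change 0.33, SE 0.066, adjusted p = 0.00547). The difference between these regional differences had an unadjusted p of 0.0388 and an adjusted p of 0.999 (log2 difference 0.18, SE 0.0823). Between genotypes, the log2 fold change was -0.04 (SE 0.0491, adjusted p = 0.788) in anterior and 0.14 (SE 0.0653, unadjusted p = 0.0486, adjusted p = 0.452) in posterior pieces.

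Nkd2, the paralogue of Nkd1, had a wider spread. Its mean was 32.8 ± 5.67 CPM (SD, n = 5) in anterior controls, 19.4 ± 6.94 (n = 4) in anterior DKO, 53.1 ± 3.23 (n = 5) in posterior controls and 58.7 ± 9.37 (n = 4) in posterior DKO libraries. Posterior pieces were higher in both genotypes, by 0.70 on the log2 scale in controls (SE 0.109, adjusted p = 0.000443) and by 1.61 in DKO embryos (SE 0.213, adjusted p = 0.000473). The difference between these values was 0.91 (SE 0.244, unadjusted p = 0.00155), with an adjusted p of 0.991. The anterior genotype comparison gave -0.76 on the log2 scale (SE 0.208, adjusted p = 0.176), with overlapping groups, and passed the threshold with DESeq2.

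Notum codes for a secreted lipase that removes the fatty acid from Wnt ligands. It was a low gene, at 4.53, 4.68, 8.0, 4.71 and 4.40 CPM in anterior controls and 11.2, 7.94, 11.8, 12.1 and 10.1 CPM in posterior controls. Anterior control 3 stood apart from the other anterior controls and lay just above posterior control 2, so the groups overlapped by those libraries only. Posterior levels were 2.03 times the anterior ones (log2 fold change 1.02, SE 0.18, adjusted p = 0.00104). In DKO embryos, 5.80, 4.42, 3.87 and 4.18 CPM in anterior pieces compared with 9.53, 8.19, 10.6 and 12.7 CPM in posterior pieces (log2 fold change 1.16, SE 0.176, adjusted p = 0.00112). Genotype comparisons gave -0.19 (SE 0.202, adjusted p = 0.74) and -0.06 (SE 0.158, adjusted p = 0.9) in anterior and posterior pieces, and the anterior value was 0.00 without control 3.

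Dkk1, a secreted inhibitor that binds the LRP5 and LRP6 coreceptors, had the largest regional ratio of the 10 genes in both genotypes. In anterior controls it was low, at 0.962, 0.968, 4.04, 1.26 and 1.42 CPM, and in posterior controls it was at 11.2, 27.8, 13.4, 30.9 and 9.28 CPM. The ratio was 11.4 (log2 fold change 3.51, SE 0.465, adjusted p = 0.000119), and without control 3 the log2 fold change was 4.12 (adjusted p = 0.000105). Anterior DKO libraries had 1.43, 2.42, 0.577 and 1.14 CPM and posterior ones 29.7, 22.4, 26.8 and 9.98 CPM, a ratio of 16 (log2 fold change 4.0, SE 0.419, adjusted p = 0.000109). Within the posterior groups the values fell into a low and a high range. The 2 control embryos with 20 and 21 somites had 27.8 and 30.9 CPM, and the 3 with 23 or 24 had 9.28 to 13.4 CPM. DKO embryos did not fall in that order, since embryo 2, with 24 somites, had 22.4 CPM. Between genotypes the log2 fold change was -0.27 (SE 0.492, adjusted p = 0.861) in anterior and 0.26 (SE 0.388, adjusted p = 0.798) in posterior pieces. Without control 3, whose anterior piece was high for Dkk1, the anterior value turned to 0.28. The axial bud marker sum of that piece (72.0 CPM) was the lowest of all libraries. Much of that sum in anterior pieces is Lfng, which averaged 55.2 CPM in anterior and 42.0 CPM in posterior controls. The part of tissue makeup in the Dkk1 value was not tested.

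Sfrp1 was the single gene of the 10 that was called lower in posterior pieces. It codes for a secreted Frizzled-related protein that binds Wnt ligands outside the cell. Anterior controls had 182, 167, 174, 206 and 178 CPM and posterior controls 82.7, 67.6, 83.3, 80.9 and 86.8 CPM, so that posterior levels were 0.442 of the anterior ones (log2 fold change -1.18, SE 0.0727, adjusted p = 2.77e-07). DKO embryos had 217, 184, 250.0 and 208 CPM in anterior pieces and 71.6, 82.5, 71.0 and 69.7 CPM in posterior pieces, a ratio of 0.344 (log2 fold change -1.54, SE 0.0969, adjusted p = 5.25e-06). The anterior piece was higher in 9 of 9 embryos. Within embryos, the posterior minus anterior log2 difference averaged -1.18 ± 0.14 (SD, n = 5) in controls and -1.54 ± 0.27 (n = 4) in DKO embryos. The test of that difference gave -0.36 (SE 0.123, unadjusted p = 0.0083, adjusted p = 0.999, and 0.851 with the embryo as a block). The anterior log2 fold change between genotypes was 0.24 (SE 0.0855, unadjusted p = 0.0162, adjusted p = 0.273) and the posterior one -0.12 (SE 0.079, adjusted p = 0.543). Neural tube markers, 9 genes that all had log2 fold changes above 0 in anterior DKO pieces, summed to 651 to 724 CPM there and to 495 to 639 CPM in anterior controls, and their part in the anterior Sfrp1 values was not tested.

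Sfrp2, of the same family, was nearly level along the axis. The ranges were 109 to 142 CPM (median 127) in anterior controls, 132 to 138 (median 136) in anterior DKO, 106 to 117 (median 115) in posterior controls and 110.3 to 135 (median 119) in posterior DKO libraries. The posterior to anterior log2 fold change was -0.15 in controls (SE 0.064, adjusted p = 0.102) and -0.16 in DKO embryos (SE 0.0673, adjusted p = 0.149). In controls it passed the threshold with the embryo as a block (adjusted p = 0.0438) and without control 1, the embryo that went against its sex label (-0.21, adjusted p = 0.0406). The log2 fold changes between genotypes were 0.11 (SE 0.0656, adjusted p = 0.519) and 0.10 (SE 0.0641, adjusted p = 0.526) in anterior and posterior pieces. Relatives of these inhibitors differed more between regions: Sfrp5 fell by 3.29 on the log2 scale from anterior to posterior in controls (SE 0.407, adjusted p = 6.67e-05) and Frzb rose by 1.42 (SE 0.139, adjusted p = 1.01e-05).

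Rspo3 codes for an R-spondin, a secreted protein that strengthens Wnt signalling by keeping Frizzled receptors on the cell surface. It was at 12.5, 11.3, 12.6, 12.4 and 12.4 CPM in anterior controls, a narrow range, and at 38.8, 60.3, 39.8, 47.5 and 51.8 CPM in posterior controls. Posterior levels were 3.89 times the anterior ones (log2 fold change 1.96, SE 0.117, adjusted p = 2.13e-07). Anterior DKO libraries had 7.68, 11.8, 8.77 and 8.91 CPM and posterior ones 56.4, 40.9, 66.7 and 46.7 CPM, a ratio of 5.71 (log2 fold change 2.51, SE 0.176, adjusted p = 9.78e-06). As for Lef1, the embryos with 20 somites had the highest posterior value in each genotype. Those libraries, control 2 and DKO 3, also had the highest axial bud sums of their groups, 434 CPM against 295 to 336 and 508 CPM against 307 to 395, and the part of that in the Lef1 and Rspo3 values was not tested.

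In anterior pieces, 3 of the 4 DKO libraries were below all controls for Rspo3 and DKO 2 lay within their range. The log2 fold change was -0.40 (SE 0.118, unadjusted p = 0.00547), with an adjusted p of 0.202. Without DKO 2 it was -0.54 (adjusted p = 0.0467), the single setting of 15 in which it passed the threshold. In posterior pieces the genotypes overlapped (log2 fold change 0.15, SE 0.158, adjusted p = 0.715). The difference between the regional values was 0.55 (SE 0.212, unadjusted p = 0.0182), with an adjusted p of 0.999, or 0.851 with the embryo as a block. Rspo1, the paralogue, was at 8.18 ± 0.992 CPM (SD, n = 5) in posterior controls and 4.92 ± 1.07 (n = 4) in posterior DKO libraries without overlap (log2 fold change -0.73, SE 0.165, adjusted p = 0.217, and called lower by DESeq2).

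**Figure D2:**
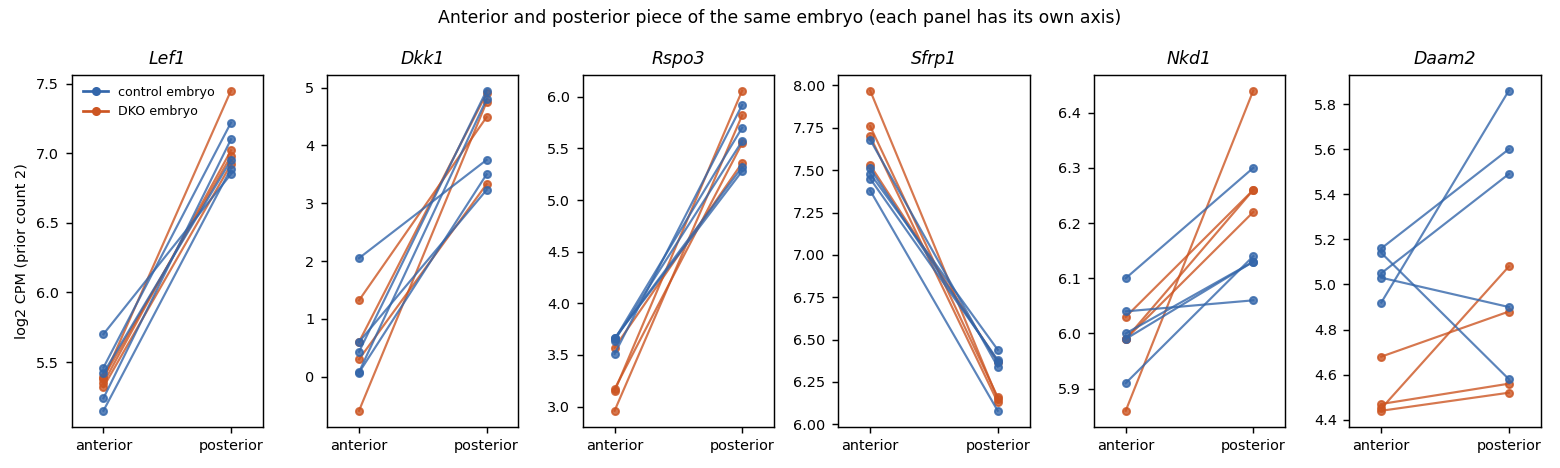
Level of 6 of the genes (vertical axis, log2 CPM with its own range in each panel) in the anterior and posterior piece (horizontal axis), each line joining the pieces of 1 embryo, with control and DKO embryos in different colours. All 9 lines rise for Lef1, Dkk1, Rspo3 and Nkd1 and all 9 descend for Sfrp1, while those of Daam2 run from -0.56 to 0.94 (posterior minus anterior) in controls.

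Daam2 codes for a formin that binds Dishevelled and is placed in the branch of the pathway that acts on actin. Anterior controls had 32.9, 35.2, 35.7, 30.3 and 32.6 CPM and anterior DKO libraries 21.6, 21.8, 25.6 and 22.1 CPM. Controls averaged 33.3 ± 2.21 CPM (SD, n = 5) and DKO libraries 22.8 ± 1.89 CPM (SD, n = 4), and the lowest control was above the highest DKO library. The DKO level was 0.682 of the control level (log2 fold change -0.55, SE 0.0741). Groups that did not overlap were found for 5.08% of the 15238 genes tested, and 0.0394% (6 genes) passed an adjusted p of 0.05. Daam2 is one of those 6, which is why it is in the list, and nothing is read from its presence. It was past that threshold in 8 of 15 settings, and it was not without control 1. The log2 fold change ranged from -0.61 to -0.53 over those settings. They reuse the anterior libraries that chose the gene, so neither the count nor the range tests the difference.

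In posterior pieces, a different set of libraries from the same embryos, Daam2 was far more variable. Posterior controls had 44.9, 23.8, 48.3, 58.1 and 29.8 CPM and posterior DKO libraries 22.9, 33.8, 29.3 and 23.4 CPM. The 3 highest values were controls, but controls 2 and 5 lay within the DKO range. The log2 fold change was -0.59 (SE 0.236, unadjusted p = 0.0295), with an adjusted p of 0.445, and the spread of the controls (SD 14 CPM, n = 5) was about as large as the difference of the means, 41.0 against 27.4 CPM. No test of the posterior against the anterior genotype difference is given for Daam2, since the anterior values chose the gene. The posterior to anterior log2 fold change of Daam2 was 0.30 (SE 0.195) in controls, where the posterior piece was higher in 3 of 5 embryos, and 0.27 (SE 0.131) in DKO embryos, where it was higher in 4 of 4, with overlapping regions in both. These values share the anterior libraries that chose the gene and are given with no test.

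Sums of markers of other tissues are given by genotype with no test. edgeR called 0 sclerotome and 0 endothelial markers between genotypes in either region. DESeq2 called 2 sclerotome markers lower in each region and 0 endothelial markers. The 7 sclerotome markers summed to 283 to 352 CPM in anterior controls and 205 to 264 CPM in anterior DKO libraries, and to 367 to 468 CPM and 183 to 357 CPM in posterior ones, with no marker at 3 counts or fewer. In posterior controls 1 to 5 the sclerotome sum was 393, 367, 435, 409.5 and 468 CPM, and in posterior DKO libraries 1 to 4 it was 254, 357, 183 and 303 CPM. The lowest control sum and the highest DKO sum were in the libraries with the lowest control and highest DKO Daam2 value, while the highest sum (control 5) and the lowest (DKO 3) went with 29.8 and 29.3 CPM of Daam2. The 7 endothelial markers summed to 255 to 293 CPM in anterior controls and 211 to 276 CPM in anterior DKO libraries. In posterior controls 1 to 5 the endothelial sum was 205, 161, 281, 257 and 217 CPM, and in posterior DKO libraries 1 to 4 it was 188, 236, 155 and 171 CPM. The lowest Daam2 value of the controls (control 2) and the highest of the DKO libraries (DKO 2) were in the libraries with the lowest and highest endothelial sum of their group, but DKO 3, with the lowest sum, had more Daam2 than DKO 1 and 4. The part of either tissue in the Daam2 levels was not tested.

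Genes whose pattern over the 18 libraries was most like that of Daam2 were found by the root mean square distance of log2 CPM, each gene centred on its own mean. Of 9680 genes with a mean of at least 10 CPM, the nearest were Rbms3 (0.239), Nhsl2 (0.252), Cdh5 (0.256), Usp29 (0.272) and Dchs1 (0.273), against a median distance of 0.429. Cdh5, the endothelial cadherin, is one of the 7 endothelial markers, and Dchs1 is a protocadherin. Cdh5 averaged 58.3 CPM in anterior and 64.8 CPM in posterior controls, while Kdr (86.9 and 51.6 CPM) and Emcn (26.6 and 18.5 CPM) went the other way. From anterior to posterior controls, 2 of the 7 markers had a log2 fold change above 0. The distances to Daam2 include the anterior values that chose the gene and were not tested. The nearest genes to Axin2 were Cyp20a1 (0.116), Fads2 (0.127), Spopl (0.131), Ankrd50 (0.131) and Arhgap39 (0.135), with a median distance of 0.25. None of the 10 nearest genes is among the other 9 genes described here. Daam1, the paralogue of Daam2, was at 39.7 ± 2.91 CPM (SD, n = 5) in anterior controls and 35.9 ± 4.76 (n = 4) in anterior DKO libraries (log2 fold change -0.15, SE 0.0871, adjusted p = 0.519). It was lower in posterior than in anterior controls (log2 fold change -0.29, SE 0.076, adjusted p = 0.0128).

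**Figure D3:**
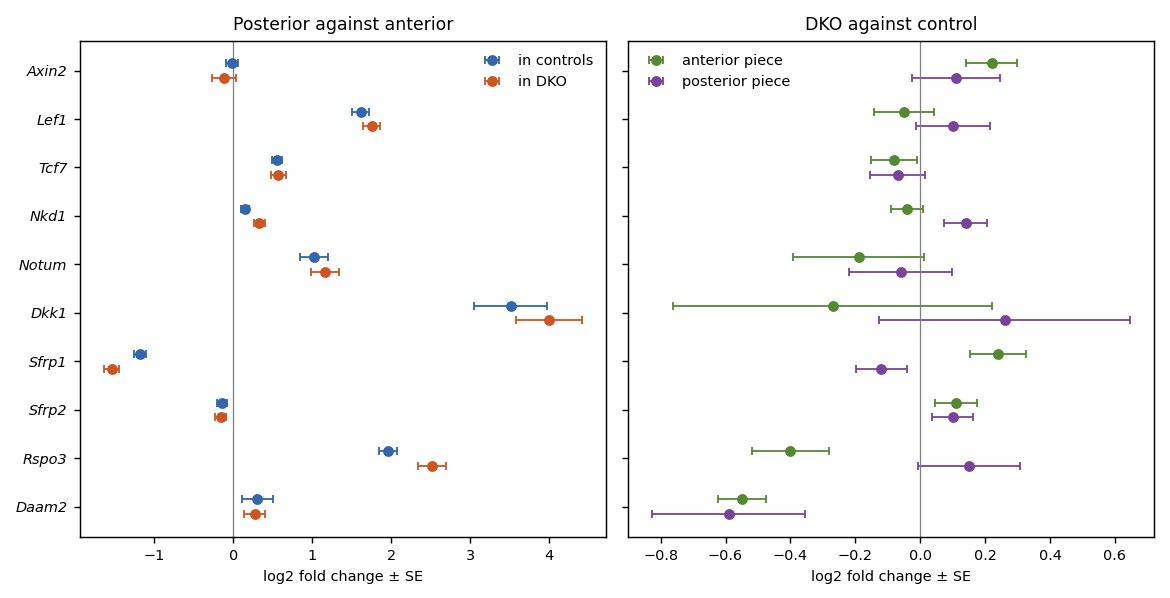
Log2 fold change (horizontal axis, shown with its SE) of each gene (vertical axis), for DKO against control in anterior and posterior pieces and for posterior against anterior pieces in each genotype. Regional differences reach 4.0 for Dkk1 in DKO embryos, while the genotype differences lie between -0.59 and 0.26.

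Across the 10 genes, genotype differences were few. In anterior pieces, leaving Daam2 aside since it was chosen on that comparison, 3 of the other 9 had an unadjusted p below 0.05 (Axin2 and Sfrp1 higher, Rspo3 lower), where 6.41% of all genes were higher and 6.61% lower by that rule. Neither edgeR nor DESeq2 called any of those 9 after adjustment. In posterior pieces edgeR called 0 of the 10 after adjustment (background 0.0126%), DESeq2 called 0, and at an unadjusted p below 0.05 Nkd1 was higher and Daam2 lower, where 5.27% of all genes were higher and 5.74% lower. Those 2 became 1 with DESeq2 or RLE scaling and 0 without control 1 or without control 3. The interaction of region and genotype gave 0 calls among the 9 genes besides Daam2 and 0 among 16428 genes with edgeR, and 0 among the 9 with DESeq2. Here 3 of the 9 (Sfrp1, Rspo3 and Nkd1) had an unadjusted p below 0.05, where 3.45% of all genes had. That count was 2 with the embryo as a block or with DESeq2, and 1 without control 1 or without DKO 3. The median log2 fold change of the 9 genes besides Daam2 was -0.05 in anterior and 0.10 in posterior pieces, against 0.00 and 0.01 over all genes. The anterior and posterior libraries come from the same embryos, so the genotype comparisons are not independent of each other.

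Libraries differed in how often they were the highest of their group. Anterior control 3, the library with the fewest counts (12.7 M), was the highest anterior control for 7 of the 10 genes (Axin2, Lef1, Tcf7, Notum, Dkk1, Rspo3 and Daam2). Posterior control 4 was the highest for 6 of the 10, including Dkk1 and Daam2. Posterior DKO 3, which had the highest axial bud sum (508 CPM) and the lowest sclerotome sum (183 CPM) of the posterior DKO libraries, was the highest for Lef1, Tcf7, Nkd1 and Rspo3. The part of depth or tissue makeup in these values was not tested.

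Levels can be compared between the genes only per length. On the scale of mean CPM per kilobase of merged exons, Sfrp2 was the highest of the 10 in all 4 groups, at 58.2 in anterior controls, 62.8 in anterior DKO, 52.3 in posterior controls and 56.2 in posterior DKO libraries. In anterior controls it was followed by Sfrp1 (41.5), Tcf7 (18.6), Axin2 (14.5), Nkd1 (14.1), Lef1 (4.82), Rspo3 (3.97), Daam2 (3.41), Notum (2.19) and Dkk1 (0.713). In posterior controls Tcf7 (27.2) stood above Sfrp1 (18.4), and Nkd1 (15.6), Rspo3 (15.4), Lef1 (14.6) and Axin2 (14.3) followed within a narrow range. Daam2 (4.20) was the lowest there, just under Notum (4.41) and Dkk1 (7.63). Neighbours such as Axin2 and Nkd1 in anterior controls, or the 4 genes from Nkd1 to Axin2 in posterior controls, differed by less than their own spread over libraries. The authors' use of the read strand was not given, and genes on the opposite strand overlap Axin2 (Gm11670), Lef1 (Gm43352), Tcf7 (A630014C17Rik), Notum (Notumos and Myadml2os), Sfrp2 (Gm26771) and Rspo3 (Gm48159), so some of their reads could belong to either. On the same strand, where no strand setting would tell the reads apart, Lef1 overlaps Gm42449, Tcf7 Gm26551, Nkd1 Gm45496 and Rspo3 Gm20276. In the annotation, no gene overlapped Dkk1, Sfrp1 or Daam2.

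The other genes of the pathway were read from fixed lists. In the comparison of posterior with anterior controls, where 25.4% of all genes were called, the median log2 fold change was 0.22 for ligands, 0.04 for receptors, 0.11 for inhibitors, 0.00 for the β-catenin machinery and 0.02 for polarity genes and formins, against -0.01 over all genes. Of 15 further Wnt-responsive genes of the axis, 4 (Cdx2, Cdx4, Msgn1 and Tbx6) did not pass the filter on low counts in anterior libraries and entered the region comparison only through the posterior pieces, where they are high. Of the 11 others, 9 were higher in posterior than in anterior controls and none lower (median log2 fold change 0.89), and 8 were higher in DKO embryos (median 0.78), where 8.76% of all genes were. Among the 4 set aside, the tail bud factors Cdx4, Msgn1 and Cdx2 were at 80.7 ± 29.2, 17.9 ± 6.87 and 98.8 ± 32.0 CPM (SD, n = 5) in posterior controls. They averaged 0.0732, 0.0155 and 0.417 CPM in anterior controls, where most libraries had few or no counts. These values are given as levels only. T, the tail bud factor Brachyury, was 22.8 times higher in posterior controls (log2 fold change 4.51, SE 0.168, adjusted p = 9.59e-09). Dll1, whose name the Cre carries, was 2.07 times higher there (log2 fold change 1.05, SE 0.0764, adjusted p = 9.18e-07). Axin2, in contrast, had no such regional call.

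Among 18 Wnt ligands tested in controls, 6 were higher and 5 lower in posterior pieces, where 12.1% and 13.3% of all genes were. Among called genes with a mean of at least 50 counts, Wnt9b, Wnt5a and Wnt5b were the largest increases, with log2 fold changes of 1.98 (SE 0.248), 1.77 (SE 0.0937) and 1.63 (SE 0.128), and Wnt9a (-1.21), Wnt1 (-1.20) and Wnt16 (-1.04) the largest decreases. In DKO embryos 6 were higher, led by Wnt5a (2.53, SE 0.165), and 3 were lower, where 8.76% and 9.70% of all genes were. Of 19 receptors, 5 were higher and 4 lower in controls, with Ptk7 (1.16, SE 0.0547), a coreceptor of the polarity branch, at one end and Ror1 (-0.81, SE 0.156) at the other. Of 16 inhibitors tested, 5 were higher, among them Rnf43 (2.25, SE 0.247), which removes Frizzled receptors, and Frzb, and 4 were lower, among them Sfrp5 and Draxin (-1.59, SE 0.122). The 5 also include Cer1 (6.39, SE 0.488), at 5.13 CPM on average in posterior and 0.0475 CPM in anterior controls. Cer1 entered the comparison only through the posterior pieces, where it is higher, so nothing is read from its call.

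Of the 18 genes of the intracellular β-catenin machinery, 3 were higher and 3 lower in posterior controls, where 12.1% and 13.3% of all genes were. Apc2 fell by 2.25 on the log2 scale (SE 0.19, adjusted p = 3.04e-06), and the other 5 called genes (Bcl9l, Bcl9, Tcf7l1, Tcf7l2 and Pygo1) had log2 fold changes between -0.47 and 0.35. In the list of polarity genes and formins, to which Daam1 belongs, 7 of 24 were higher and 6 lower in controls, beside the same 12.1% and 13.3% of all genes. Prickle1 (1.88, SE 0.111) and Dact1 (1.34, SE 0.0792) were the largest increases there among genes averaging 50 counts or more, and the cadherins Celsr3 (-2.15, SE 0.162) and Celsr2 (-1.44, SE 0.0884) the largest decreases.

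**Figure D4:**
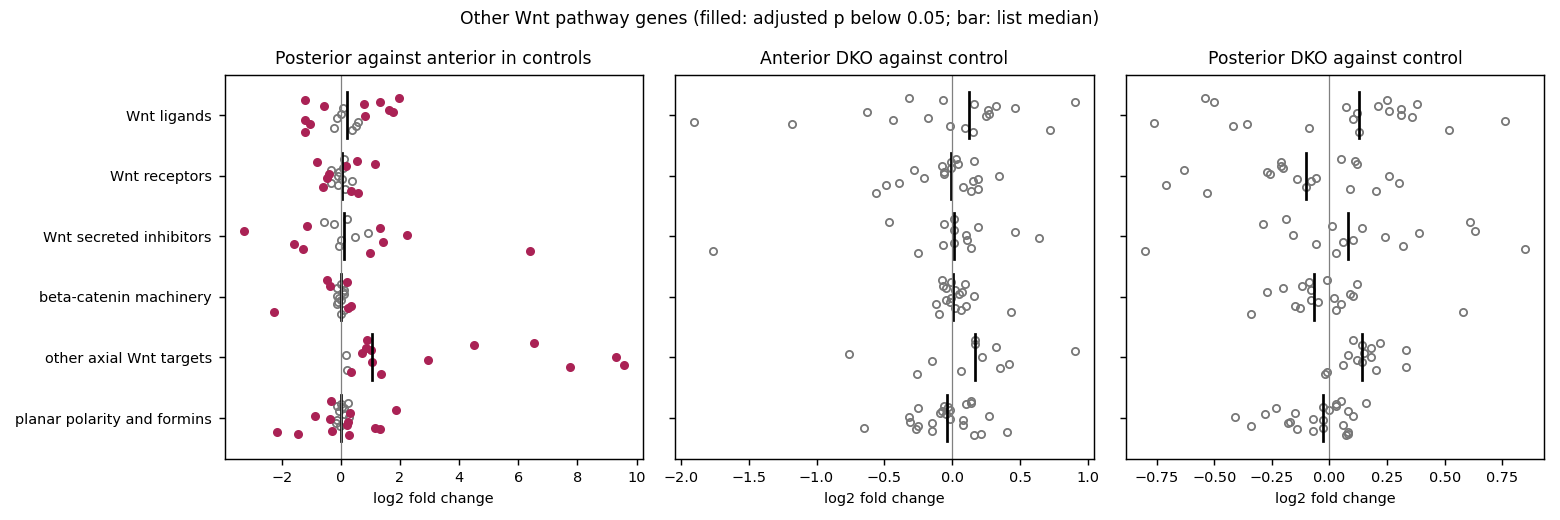
Log2 fold change, posterior against anterior in controls and DKO against control in each region (horizontal axes, which have different ranges in the panels), for each gene of the Wnt pathway lists (vertical axis, by list); each point is 1 gene, filled points passed an adjusted p of 0.05 and the black bar is the median of the list. The axial Wnt-responsive genes lie above 0 in the region panel, where some of them passed the filter only through the posterior pieces. With edgeR, 0 genes of these lists passed in the genotype panels.

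Between genotypes, edgeR called 0 genes of the 6 lists in either region. DESeq2 called Wnt6, Dll1 and Sp5 higher and Wnt5a, Fzd1, Fzd4, Nkd2 and Diaph3 lower in anterior pieces, and Fzd1 and Fzd4 lower in posterior pieces, where it called 1.94% of all genes in anterior and 1.01% in posterior pieces. At an unadjusted p below 0.05 with edgeR, where 6.41% of all genes were higher and 6.61% lower, anterior pieces had 7 ligands higher and 4 lower of 18, 3 receptors higher and 3 lower of 19, 2 inhibitors higher and 1 lower of 14, 2 genes of the β-catenin machinery higher and 0 lower of 18, 5 axial Wnt-responsive genes higher and 1 lower of 11, and 3 polarity genes and formins higher and 4 lower of 24. In posterior pieces, where the shares of all genes were 5.27% and 5.74%, the counts were 3 and 0 of 19 ligands, 1 and 3 of 19 receptors, 1 and 1 of 16 inhibitors, 1 and 1 of 18 machinery genes, 0 and 0 of 15 axial genes and 0 and 2 of 24 polarity genes and formins, higher and lower in that order.

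The lowest adjusted p of these lists with edgeR in anterior pieces was that of Wnt5a, a ligand mostly tied to the polarity branch, which averaged 48.1 ± 7.09 CPM in the 5 controls (SD) and 31.0 ± 3.90 CPM in the 4 DKO libraries (log2 fold change -0.63, SE 0.11, adjusted p = 0.0641). Wnt6, Fzd1 and Dll1 shared the next adjusted p. The receptor Fzd1 was at 42.0 ± 4.74 and 28.5 ± 4.37 CPM (log2 fold change -0.56, SE 0.112, adjusted p = 0.0881). Dll1 differed in the other direction, at 64.0 ± 3.41 CPM in controls and 85.8 ± 12.1 CPM in DKO libraries (log2 fold change 0.42, SE 0.0841, adjusted p = 0.0881). These genes were named after their values were seen.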

How the data were processed

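The authors deposited expected counts per Ensembl gene for 18 poly(A) libraries (single-end, 61 bp), and RSEM, cutadapt, CASAVA and the build GRCm38 are named in the submitters' processing notes; the aligner, versions and strand setting are not given in the sources used here. Symbols came from GENCODE M21 for 53274 of 53465 identifiers.

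Expected counts were rounded and tested with edgeR 4.0.16 in R 4.3.3 (filterByExpr, minimum count 10 and total 15; TMM scaling; glmQLFit and glmQLFTest, two-sided). P-values were adjusted by Benjamini-Hochberg over all genes tested in a comparison, with a threshold of 0.05. The SE is the size of the log2 fold change over the square root of F. CPM were TMM-scaled over 18 libraries and 16428 genes; the prior count for log2 CPM was 2. The code was tested on simulated data.

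Alternatives were RLE scaling, DESeq2 1.42.0, no filter, somite number as covariate, 18 libraries in 1 fit, the embryo as block and leaving out each embryo. Libraries of the same embryo were matched by genotype, sex label and somite number, and their deviations from the group means correlated at 0.256 to 0.57 in 9 pairs, against -0.283 to 0.0916 in 32 pairs of other embryos. No pair of replicates agreed within sampling noise (chi-square per gene 9.44 to 39.4 in 32 pairs). Reads have no molecular identifiers, so the floor of 3 counts covers counting error only.

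Named were the 10 genes, Meis1 and Meis2, close paralogues, up to 3 called genes per pathway list and direction with a mean of 50 counts, and the 5 genes most like Daam2 and Axin2. T, and the pathway genes of the genotype comparisons, were named after their values were seen. Members and lists were chosen with earlier results of these data known.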

Additional observations from a re-analysis of the deposited data

Results flagged for a closer look

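In 6 of the 40 combinations of gene and group, 1 library stood apart from the rest, with a gap to its neighbour above the Dixon limit for the group size; chance flags about 1 in 20. Anterior control 3 was high for Notum, at 8.0 CPM (gap 0.915 of the range), and for Dkk1, at 4.04 CPM (0.850). Anterior control 2 was the low library for Rspo3, at 11.3 CPM (0.848), in a group that spanned only 11.3 to 12.6 CPM. Anterior DKO 3 was the high library for Daam2, at 25.6 CPM (0.879), and was still below the lowest anterior control (30.3 CPM). In the posterior DKO group, embryo 3 was high for Lef1, at 174 CPM (0.836), and embryo 2 was high for Sfrp1, at 82.5 CPM (0.852).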

How the results depend on the processing

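Region calls were the stable ones: no member lost a call under any alternative, and the calls on all genes moved from 3884 to 5136 in controls and from 2913 to 3004 in DKO embryos with the embryo as block; leaving out a DKO embryo gave 1728 (without DKO 1) to 2550. The genotype counts over all genes depended on the choice. In anterior pieces the 6 calls became 296 with DESeq2, 83 with no filter, 84 with somite number and 19 with 18 libraries in 1 fit, and 1 to 57 leaving out an embryo (57 without DKO 2, 1 without DKO 1). In posterior pieces the 2 calls became 161, 14, 7 and 51 in the same order, and 2 to 24 leaving out an embryo (24 without DKO 2). The interaction gave 10 calls with DESeq2 and 0 to 1 leaving out an embryo. The cause was not tested. Among the 10 genes, Daam2 in anterior pieces fell short of the threshold in 18 libraries (adjusted p = 0.366) and without controls 1, 2, 3 or 5 or DKO 1 or 4 (adjusted p = 0.0737 to 0.186). These refits reuse the anterior values that chose the gene and do not test it. With the embryo as a replicate block, the pairing changed no call on these genes besides Nkd1 and Sfrp2 in controls (adjusted p = 0.0267 and 0.0438). Leaving out an embryo turned the sign of small, uncalled log2 fold changes, with these ranges: anterior Lef1 -0.10 to 0.03, Notum -0.33 to 0.00 and Dkk1 -0.64 to 0.28; posterior Lef1 -0.04 to 0.16 and Notum -0.18 to 0.04; interaction Sfrp2 -0.06 to 0.05, Tcf7 -0.04 to 0.07, Notum -0.03 to 0.31 and Dkk1 -0.13 to 0.85; region in controls Axin2 -0.08 to 0.04.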
